A study of Capra hircus with 6 samples.

Results

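The 10 genes described here answer to ERK signaling and, for the most part, dampen it. They were examined in cashmere goat dermal papilla cells after treatment with all-trans retinoic acid (ATRA). The set holds the Sprouty genes SPRY1, SPRY2, and SPRY4, the Sprouty-related genes SPRED1 and SPRED2, the dual-specificity phosphatase genes DUSP4, DUSP5, and DUSP6, and the ETS factor genes ETV4 and ETV5. They were chosen by gene symbol. All 10 are among the 15944 genes of the deposited count table, and all 10 were among the 12588 genes abundant enough to be tested. The cells were primary cultures of wild-type dermal papilla cells from secondary hair follicles (SHF-DPCs) of Albas cashmere goats. Secondary follicles are those that grow cashmere, and the papilla is the mesenchymal cluster at the follicle base. The goats were 3 years old, skin was taken during the growth phase, and cells were used at passages 4 to 7. The control group has 3 libraries from cells in standard medium without ATRA, and the ATRA-treated group has 3 libraries from cells given ATRA at 100 µM for 24 h. The labels name no vehicle for the control. The sequenced cells came from 3 animals, and the sources do not say whether libraries with the same number share an animal.

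Growth factors such as FGF, EGF, and PDGF activate receptor tyrosine kinases, which pass a signal through Ras, RAF, and MEK to the kinases ERK1 and ERK2. Active ERK induces its own inhibitors within hours, so that the pathway limits itself. Sprouty and SPRED proteins act near the receptor and Ras, DUSP proteins remove the activating phosphates from ERK, and ETV4 and ETV5 are transcription factors commonly read as markers of FGF signaling. In the hair follicle, FGF signals pass between the papilla and the overlying epithelium. Transcript counts carry no information on ERK phosphorylation.

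Total counts lay between 36887160 and 38012771 in control libraries and between 35532339 and 36870939 in ATRA libraries. Levels are given as normalized CPM (a gene's share of its library's counts, on a scale common to all libraries), scaled by edgeR's TMM method. The log₂ fold change (log₂FC) is ATRA over control, tested with edgeR's quasi-likelihood test with adjustment over all genes tested. ATRA changed much of the transcriptome. At an adjusted p under 0.05, 40.9% of the genes tested were higher and 38.7% lower, and the median log₂FC of all genes was 0.04. Dividing by library size only would put that median at 0.52 and raise the share of higher genes among the calls from 51.4% to 73.5%. The retinoid responder gene RARB had 2, 2, and 1 counts in the control libraries and 108, 91, and 82 with ATRA.

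The cells carried a mesenchymal profile in which some papilla markers were missing. Of 12 papilla and fibroblast markers, 8 were abundant enough to be tested, among them VIM, COL1A1, VCAN, PDGFRA, RSPO3, and ACTA2. PROM1, ALPL, and CORIN had at most 1 count in any library. SOX2, also too low to test, had 5, 0, and 2 counts in the control libraries and 10, 16, and 9 with ATRA. All 8 tested markers fell with ATRA, ACTA2 from 6582 to 8.37 CPM. The summed level of all 12 markers went from between 83848 and 85514 CPM to between 4215 and 4535 CPM. Summed markers of other cells were far lower. Keratinocyte markers summed to 3.11 to 4.98 CPM in the control group and 5.37 to 5.97 CPM with ATRA. Only KRT10 was tested, and it was higher (3.17 to 5.62 CPM). KRT14 went the other way, from 20, 14, and 10 counts to 3, 0, and 0. KRT5 had 2, 7, and 3 counts in the control libraries and 0 in each ATRA library. CDH1, EPCAM, and TP63 had at most 5 counts in any library. Leukocyte markers summed to 9.27 to 12.9 CPM and 41.3 to 44.2 CPM (2 tested, CD14 and CD68, both higher), with CSF1R, CD3E, and ITGAM at 7 counts or fewer. Melanocyte markers summed to 16.1 to 17.6 CPM and 32.2 to 39.0 CPM (2 tested, MITF higher and PMEL lower), with TYRP1 at 1 count or fewer. Endothelial markers summed to 82.4 to 90.3 CPM and 15.9 to 17.6 CPM (4 tested, 2 higher and 1 lower). In that list ERG fell from 85.2 to 9.20 CPM, TEK rose from 0.619 to 1.13 CPM, and PECAM1 went from 0 counts in all control libraries to 242, 340, and 206 with ATRA, while CDH5 had 1 count or fewer and KDR 10 or fewer. The part of these shifts in the results was not tested, and in bulk RNA fewer cells of a type cannot be told apart from less RNA per cell.

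With ATRA, 6 of the 10 genes rose, 1 fell, and 3 did not pass the test, against 40.9% of all genes higher and 38.7% lower. The genes that rose were DUSP4, SPRY4, SPRY1, SPRY2, DUSP5, and ETV4. All but ETV4, 5 genes, also exceeded a log₂FC of 1 with an unadjusted p under 0.05, a threshold that 13.7% of all genes passed upward and 17.3% downward. None of the 10 passed it downward. In 6 genes every ATRA library lay above every control library (41.2% of all genes), and in 1 gene every ATRA library lay below (39.0%). The median log₂FC was 0.84 over the 10 genes. With library size only, SPRED1, SPRED2, and ETV5 also counted as higher, which made 9 higher and 1 lower, when 62.9% of all genes were higher and 22.7% lower.

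**Figure D1:**
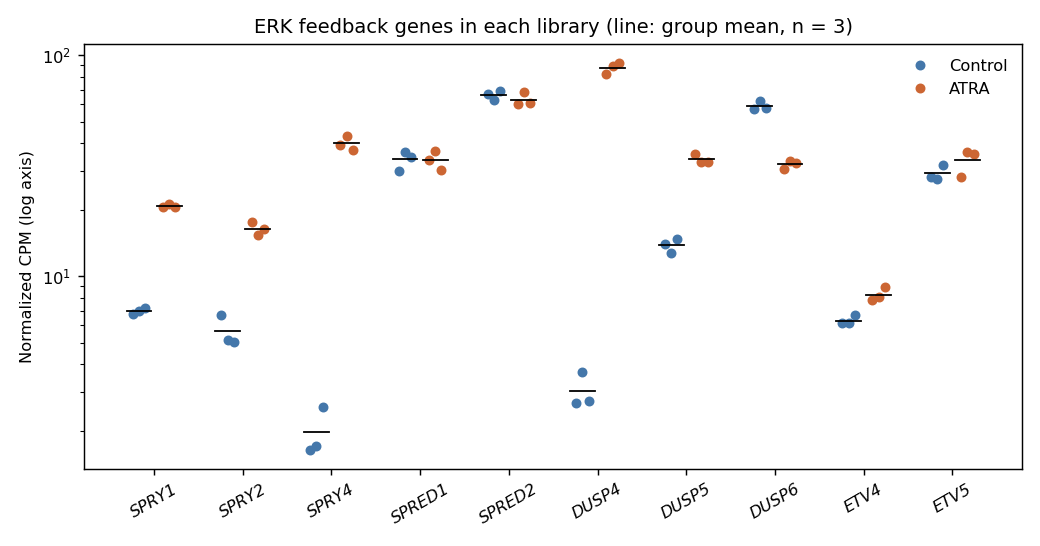
Normalized CPM (log axis) of each of the 10 genes in the 3 control libraries (blue) and the 3 ATRA libraries (orange), with a line at each group mean. DUSP4 rose from a mean of 3.03 to 87.9 CPM and SPRY4 from 1.97 to 40.0 CPM, while DUSP6 fell from 58.8 to 32.1 CPM and the points of SPRED1, SPRED2, and ETV5 overlap.

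All 3 Sprouty genes rose with ATRA, and SPRY4 rose most. Sprouty proteins are induced by receptor tyrosine kinase signaling and hinder the activation of Ras and RAF. SPRY4 had 1.64, 1.70, and 2.55 CPM in the control libraries, from 51, 55, and 82 counts. In the ATRA libraries it had 39.4, 43.2, and 37.5 CPM. The groups were far apart, and the control libraries varied more in proportion (25.9% coefficient of variation) than the ATRA libraries (7.23%). The log₂FC was 4.34 (standard error 0.129, adjusted p = 5.25e-16, edgeR), which is 20.3-fold with a 95% interval from 16.8 to 24.5. SPRY4 held rank 153 among the 12588 genes ordered from the largest rise.

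SPRY1, which limits growth factor signaling in developing organs such as the kidney, had 6.77, 6.99, and 7.16 CPM in the control libraries. With ATRA it had 20.5, 21.2, and 20.6 CPM. Both groups had the smallest spread of the 10 genes, with a coefficient of variation of 2.84% and 1.80%. The log₂FC was 1.57 (standard error 0.0917, adjusted p = 1.46e-11, edgeR), or 2.97-fold. SPRY2, a widely expressed Sprouty gene, had 6.70, 5.16, and 5.04 CPM without ATRA and 17.6, 15.3, and 16.4 CPM with it. Control replicate 1 stood above the other control libraries but well below every ATRA library. The log₂FC of SPRY2 was 1.54 (standard error 0.118, adjusted p = 8.06e-10, edgeR), or 2.92-fold, close to that of SPRY1.

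SPRED1 and SPRED2 stayed near the median of all genes. SPRED proteins are related to Sprouty proteins through a shared C-terminal domain, and SPRED1 brings the Ras inactivator neurofibromin to the membrane. SPRED1 had 30.1, 36.6, and 34.8 CPM in the control libraries and 33.7, 36.8, and 30.4 CPM in the ATRA libraries. SPRED2 had 66.6, 62.7, and 68.7 CPM without ATRA and 60.5, 68.2, and 60.6 CPM with it. The groups overlapped for both genes. The log₂FC was -0.0086 for SPRED1 (95% interval from -0.19 to 0.18, adjusted p = 0.931, edgeR) and -0.06 for SPRED2 (95% interval from -0.21 to 0.08, adjusted p = 0.388, edgeR), so at this scaling a rise as large as that of SPRY1 lies outside both intervals. With library size only both genes were called higher, at 0.47 and 0.41, but there too they lay below the median of all genes, by 0.05 and 0.10 on the log2 scale.

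The phosphatase genes moved in opposite directions. DUSP4 and DUSP5 encode phosphatases of the nucleus, and DUSP6 encodes one of the cytoplasm. DUSP4 had 2.67, 3.68, and 2.74 CPM in the control libraries, from 83, 119, and 88 counts, and 82.0, 89.8, and 92.0 CPM in the ATRA libraries. No other of the 10 genes changed as much. The log₂FC was 4.86 (standard error 0.105, adjusted p = 5.10e-18, edgeR), which is 28.9-fold with a 95% interval from 24.8 to 33.7, at rank 127 of the 12588 genes.

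DUSP5, which acts on ERK with high specificity and holds it in the nucleus, had 14.05, 12.8, and 14.8 CPM without ATRA and 35.8, 33.0, and 32.8 CPM with it. The groups did not overlap. The log₂FC was 1.29 (standard error 0.0830, adjusted p = 6.73e-11, edgeR), or 2.44-fold. DUSP6, a phosphatase specific for ERK and a common marker of FGF signaling, was the gene that fell. It had 56.9, 61.9, and 57.7 CPM in the control libraries and 30.7, 33.2, and 32.5 CPM in the ATRA libraries, with no overlap. Its log₂FC was -0.87 (standard error 0.0683, 95% interval from -1.02 to -0.73, adjusted p = 1.17e-09, edgeR). DUSP6 was lower under every scaling tried, and its log₂FC was -0.39 with library size only.

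ETV4 and ETV5 moved little. Both belong to the PEA3 group of ETS factors. ETV4 had 6.15, 6.12, and 6.66 CPM in the control libraries and 7.80, 8.05, and 8.97 CPM in the ATRA libraries. The groups did not overlap, though the nearest libraries were close. The log₂FC was 0.39 (standard error 0.116, adjusted p = 0.00521, edgeR), or 1.31-fold. ETV5 had 28.3, 27.6, and 31.8 CPM without ATRA and 28.2, 36.5, and 35.9 CPM with it, so ATRA replicate 1 sat among the control libraries. Its log₂FC was 0.20 (standard error 0.0946, 95% interval from -0.0010 to 0.40, adjusted p = 0.0631, edgeR). ETV5 lay close to the threshold. It passed the test without ATRA replicate 1 (log₂FC 0.30), without Control replicate 3 (0.26), with the replicate block (0.19), and with upper-quartile scaling (0.27).

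**Figure D2:**
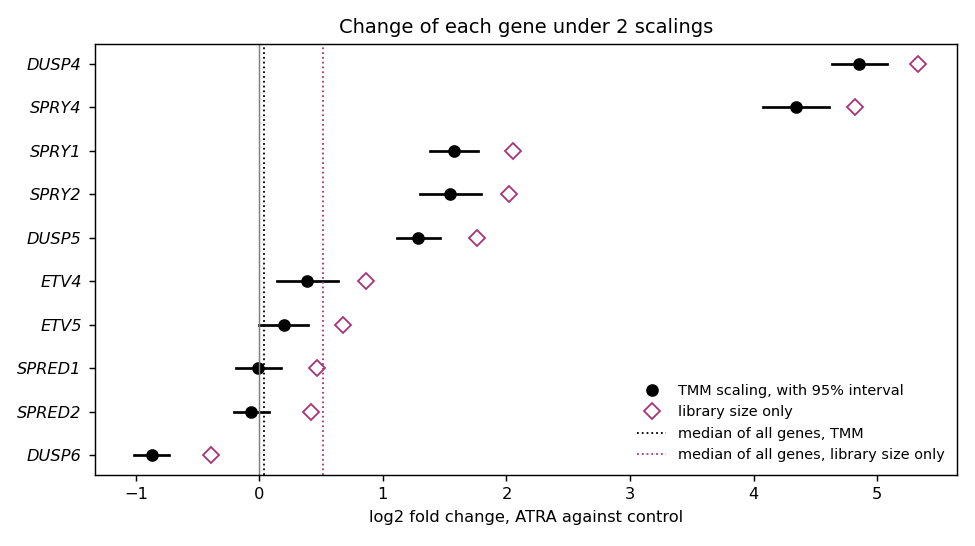
The log2 fold change of each gene under TMM scaling (black points, bars for the 95% interval from edgeR's fit of 3 against 3 libraries) and with library size only (open diamonds), with dotted lines at the median of all genes under each. DUSP4 and SPRY4 stand at 4.86 and 4.34, DUSP6 is at -0.87, and the change of scaling shifts every gene by about the same amount as the median, from 0.04 to 0.52.

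Ratios between genes of one family were taken within each library, since such a ratio does not depend on scaling between libraries. In all, 8 pairs were compared, with exact permutation tests, two-sided, for which 3 libraries against 3 cannot give a p below 0.1. For DUSP4 over DUSP6 the log2 ratio of counts was -4.40, -4.07, and -4.39 in the control libraries and 1.41, 1.44, and 1.504 in the ATRA libraries. Control libraries thus held far fewer DUSP4 than DUSP6 reads, and ATRA libraries held more. The ratio rose by 5.74 (standard error 0.113, n = 3 per group, exact p = 0.1, adjusted p = 0.16). DUSP5 over DUSP6 rose by 2.16 (standard error 0.120) and DUSP4 over DUSP5 by 3.58 (standard error 0.223), with the groups apart in both. The DUSP pairs share genes, so each of these changes follows from the others and they are not separate results. The same holds for the Sprouty pairs below. With DUSP4 and DUSP5 higher and DUSP6 lower without overlap, the ratios over DUSP6 had to separate. These values are changes of a ratio. Levels of different genes were not compared, because read counts also grow with transcript length.

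Among the Sprouty genes, SPRY4 gained on both others. SPRY4 over SPRY1 rose by 2.79 (standard error 0.188) and SPRY4 over SPRY2 by 2.81 (standard error 0.319), with no overlap between groups. SPRY1 over SPRY2 had a mean log2 ratio of 0.32 in the control group and 0.34 with ATRA, a difference of 0.02 (standard error 0.168, exact permutation p = 0.9). SPRED1 over SPRED2 differed by 0.06 (standard error 0.116, exact permutation p = 0.7) and ETV4 over ETV5 by 0.20 (standard error 0.0978, exact permutation p = 0.2), both with overlapping groups. The 5 pairs with separate groups all had p = 0.1, the smallest exact p the design allows, and 0.16 after adjustment over 8 pairs. Separate groups were common among single genes, with ATRA above in 41.2% of all genes and below in 39.0%. The share of other gene pairs with separate ratios was not computed, so the count of 5 is not read as particular to these families.

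**Figure D3:**
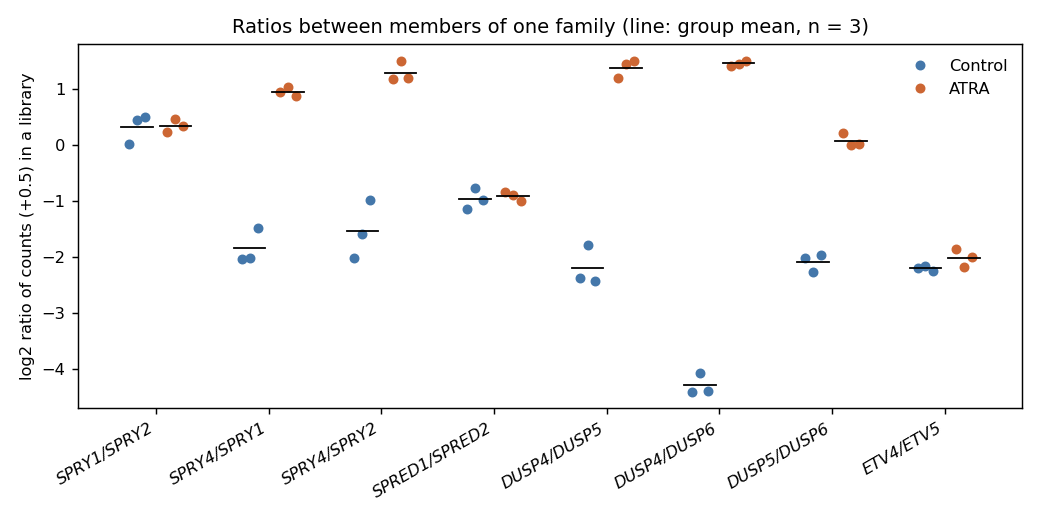
The log2 ratio of counts, with 0.5 added, between 2 genes of a family within each library (blue, control; orange, ATRA; line, mean of 3). The 5 pairs with SPRY4, DUSP4, or DUSP5 over a family member that rose less or fell are apart by 2.16 to 5.74, and the other 3 overlap.

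The remaining genes of these families were then examined. Of 10 listed, 9 were tested, with 7 higher, 2 lower, and a median log₂FC of 0.70. All genes had a median of 0.04, with 40.9% higher and 38.7% lower. The phosphatase genes divided further. DUSP1, an early response phosphatase of the nucleus that acts on p38 and JNK as well as ERK, rose from 118 to 192 CPM (log₂FC 0.70, standard error 0.0543). DUSP7, the cytoplasmic ERK phosphatase closest to DUSP6, fell from 53.8 to 19.7 CPM (log₂FC -1.45, standard error 0.0701). DUSP10, which prefers p38 and JNK, fell from 37.5 to 5.51 CPM (log₂FC -2.76, standard error 0.0923), while DUSP8 and DUSP16, which also act on those kinases, rose with a log₂FC of 0.86 (standard error 0.0949) and 0.95 (standard error 0.0884).

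Grouped by where the proteins are known to reside, a grouping made after the values were seen, the 4 nuclear phosphatase genes DUSP1, DUSP2, DUSP4, and DUSP5 were all higher. The tested cytoplasmic ERK phosphatase genes, DUSP6 and DUSP7, were both lower. Among all genes, 40.9% were higher and 38.7% lower. The cytoplasmic group was limited to ERK phosphatases, whereas the nuclear group was not, since DUSP1 also acts on p38 and JNK. The grouping leaves out DUSP8 and DUSP16, which were higher, and DUSP10, which was lower, so it does not cover every phosphatase gene tested. Drawn from these same values, it is a description, and whether direction goes with location was not tested. All 6 grouped genes kept their directions under each scaling tried, which does not test a grouping made after those directions were seen. DUSP2 was measured on few reads (0.24 and 0.65 CPM). It missed the test with R's t.test function (0.41 on the log2(CPM + 1) scale), and its log₂FC was 1.09 without Control replicate 2 and 2.01 without Control replicate 3. For the cytoplasmic group, DUSP9 had at most 2 counts in any library and was not tested. SPRED3, the remaining SPRED gene, rose from 16.7 to 26.0 CPM (log₂FC 0.64, standard error 0.0802) (whether it differs from SPRED1 and SPRED2 was not tested). SPRY3 had 0.16 CPM without ATRA and 1.25 CPM with it, and ETV1, the remaining PEA3-group gene, had a log₂FC of 0.63.

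Genes of the cascade itself moved in both directions. Of 20 tested genes from the adaptors to the ERK-activated kinases, 6 were higher, 9 lower, and 5 not called, with a median log₂FC of -0.15. Among all genes, 40.9% were higher and 38.7% lower. The Ras gene NRAS fell with a log₂FC of -0.88 (standard error 0.0642), and the adaptor gene SHC1 with -1.05 (standard error 0.0531). RPS6KA2, which encodes an ERK-activated kinase, had -0.89 (standard error 0.0843). The Ras exchange factor genes SOS1 and SOS2 rose with 0.998 (standard error 0.0679) and 0.72 (standard error 0.0837), and the RAF genes BRAF and ARAF with 0.98 (standard error 0.0823) and 0.40 (standard error 0.0713). With library size only 12 genes were higher and 6 lower, beside 62.9% and 22.7% of all genes under that scaling.

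Receptor tyrosine kinase genes, which sit above the cascade, were more often lower than higher. Of 12 tested, 3 were higher and 7 lower, with a median log₂FC of -0.48, where 40.9% of all genes were higher and 38.7% lower. With library size only 5 were higher and 5 lower (62.9% and 22.7% of all genes). PDGFRA, the PDGF receptor typical of dermal fibroblasts, fell from 865 to 129 CPM (log₂FC -2.74, standard error 0.0660). FGFR2 and AXL fell with a log₂FC of -2.53 (standard error 0.0850) and -2.50 (standard error 0.0629), and the insulin-like growth factor receptor gene IGF1R with -1.26 (standard error 0.0618). EGFR rose from 25.5 to 76.3 CPM (log₂FC 1.58, standard error 0.0697), INSR, the insulin receptor gene, rose with 1.52 (standard error 0.0863), and FGFR1 with 0.59 (standard error 0.0587).

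Other genes known to be induced by ERK were mostly higher. Of 17 tested, 12 were higher and 4 lower, with a median log₂FC of 0.62, where 40.9% of all genes were higher and 38.7% lower. With library size only 13 were higher and 3 lower (62.9% and 22.7% of all genes). HBEGF, which encodes an EGF receptor ligand, rose from 1.11 to 19.3 CPM (log₂FC 4.12, standard error 0.132). The early response gene IER3 rose from 135 to 673 CPM (log₂FC 2.32, standard error 0.0717), and HMGA2 and MAFF rose with a log₂FC of 2.05 (standard error 0.189) and 1.96 (standard error 0.0685). The cyclin gene CCND1, which drives entry into the cell cycle, fell from 262 to 73.9 CPM (log₂FC -1.83, standard error 0.0545). EPHA4 fell with -2.77 (standard error 0.0847), and EGR2 fell from 15.1 to 0.44 CPM (log₂FC -5.11, standard error 0.182). FOSL1 fell with -0.44 (standard error 0.0876) and turned to 0.04 with library size only.

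Of 14 other negative regulators of receptor and Ras signaling, 5 were higher and 5 lower, where 40.9% of all genes were higher and 38.7% lower. Their median log₂FC was -0.06. With library size only 8 were higher and 3 lower (62.9% and 22.7% of all genes). ERRFI1, a feedback inhibitor of the EGF receptor, rose from 73.4 to 435 CPM (log₂FC 2.57, standard error 0.0564). PTPRJ, a receptor-type phosphatase gene, rose with 1.47 (standard error 0.0839), LRIG1, which promotes the degradation of EGF receptor family members, with 0.69 (standard error 0.0574), and RASA1, a Ras inactivator gene, with 0.57 (standard error 0.0618). DAB2IP, PEBP1, and PEA15 fell with a log₂FC of -1.35 (standard error 0.0904), -1.23 (standard error 0.0783), and -1.14 (standard error 0.0589). PEBP1 encodes a RAF inhibitor and PEA15 a protein that holds ERK in the cytoplasm. RASA3 fell with -0.46 (standard error 0.0684) but turned to 0.02 with library size only.

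**Figure D4:**
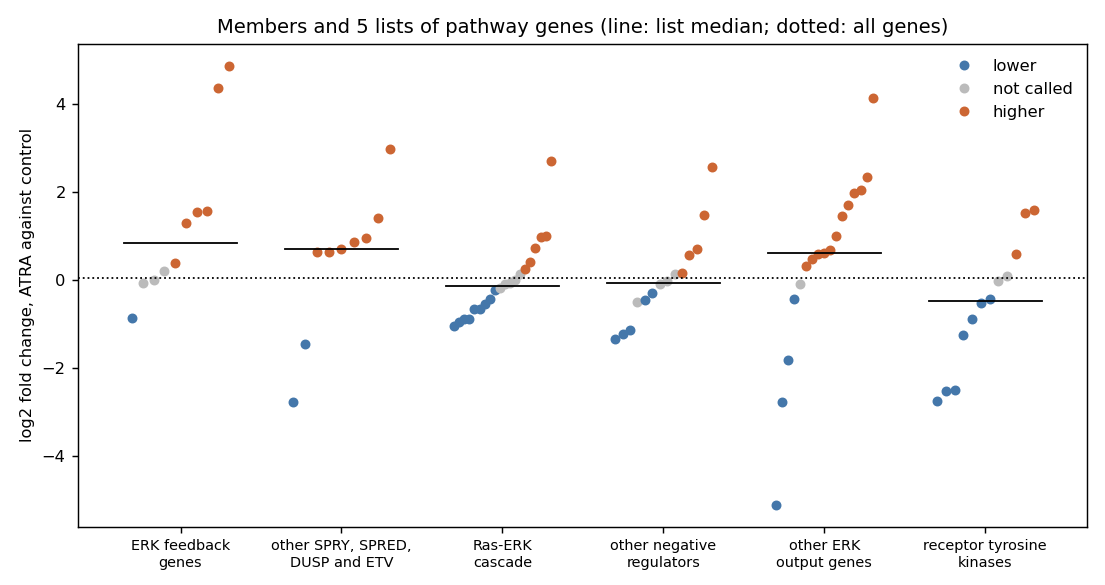
The log2 fold change of each tested gene in the 10 feedback genes and 5 lists of pathway genes, under TMM scaling (orange, higher; blue, lower; grey, not called at an adjusted p under 0.05), with a line at each list's median and a dotted line at the median of all genes. The feedback genes (median 0.84), their relatives (0.70), and the ERK output genes (0.62) lie mostly above the dotted line, and the receptor genes (-0.48) mostly below.

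The annotation in the deposited table gave a wider view, with terms picked after the values were seen. The counts below stand beside 40.9% of all genes higher and 38.7% lower, with a median log₂FC of 0.04. Negative regulation of the ERK1 and ERK2 cascade is attached to 6 of the 10 genes, SPRED1, DUSP4, DUSP6, and all 3 Sprouty genes. Of the 24 other tested genes with that term, 10 were higher and 11 lower (median log₂FC -0.12). Of the 88 other tested genes with the opposite term, positive regulation of that cascade, which is attached to SPRY2 as well, 31 were higher and 46 lower (median log₂FC -0.34). The MAPK signaling pathway of KEGG holds DUSP4, DUSP5, and DUSP6, and of its 222 other tested genes 85 were higher and 98 lower (median log₂FC -0.07).

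The genes whose pattern over the 6 libraries was most like that of DUSP4, by the root mean square difference of centred log2 CPM (prior count 2) among 10682 genes, were MYO15A (0.123), MAN1C1 (0.141), and OSCAR (0.158). The prior count shrinks the differences of genes near 0 in a group. MYO15A had 0.0417 CPM without ATRA and 2.64 CPM with it (log₂FC 5.87, standard error 0.403), and MAN1C1 had 0.157 and 5.75 CPM (log₂FC 5.16, standard error 0.253), so both measures rest on few control reads. OSCAR, which encodes a receptor of osteoclasts, had 3.36 CPM without ATRA and 98.8 CPM with it, and its log₂FC of 4.88 was the nearest of these to the 4.86 of DUSP4. Those most like DUSP6 were RNF19A (0.0236), RYK (0.0293), and C2CD5 (0.0360), with log₂FC from -0.91 to -0.83.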

How the data were processed

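Per the labels, poly(A) RNA libraries were made from 3 control and 3 ATRA-treated cultures of 1 batch. The authors used fastp and TrimGalore for read cleaning and deposited whole-number counts per gene, not normalized. The submitters' processing notes name HISAT2, featureCounts, and DESeq2. Build, annotation, and strand setting are not given in the sources used here, so overlapping genes are uncertain and no coordinates or sequences are printed.

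From these counts, edgeR 4.0.16 (R 4.3.3) kept 12588 genes by its expression filter, scaled them by TMM, and fitted all 6 libraries without covariates (robust quasi-likelihood test, two-sided, Benjamini-Hochberg adjustment, prior count 0.125). Normalized CPM uses the tested total times the TMM factor. The standard error is |log₂FC| over the square root of F, and intervals cover only these libraries. The thresholds |log₂FC| above 1 and p under 0.05 follow the study, whose t.test function was an alternative, as was DESeq2 1.42.0. No pair of libraries within a group matched within sampling noise (chi-square over its degrees of freedom, 5.01 to 18.4). On simulated data edgeR recovered 199 of 200 changed genes among 12588 and called 11 unchanged genes. The simulation changed far fewer genes than were called here, evenly up and down, so it does not bear on the choice of scaling. Ratios used scipy 1.17.1 and 0.5 added to each count. The genes and the 5 lists were chosen with earlier results of these data known. Of each list, up to 4 genes per direction were named, by log₂FC, if they passed the test without overlap and averaged 1 CPM or more. DUSP2, DUSP9, SPRY3, and ETV1 fall outside that rule and were chosen after their values were seen. A listed gene that met the rule is not reported by name.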

Additional observations from a re-analysis of the deposited data

How the results depend on the processing

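With library size only, 7921 genes were called higher and 2861 lower, against 5151 and 4877 with TMM, and 3390 against 1730 passed upward at |log₂FC| above 1. The t.test alternative gave 1093 there, but its fold change was taken on the log2(CPM + 1) scale. That scale shrinks the changes of genes with few reads, so test and scale changed together. The counts over the 10 feedback genes stayed within 1.5 times under each of the 14 refits of the whole table. With library size only, SPRED1 (0.4704) and SPRED2 (0.4149), which had not passed the test with TMM, were called higher, and RASA3 (0.0205) and FOSL1 (0.0425), lower with TMM, changed sign and missed the test. The log₂FC of SPRED1 was near 0 with either sign under the other settings. ETV5 passed the test with upper-quartile scaling (0.2746), with library size only (0.6767), and with a replicate block (0.1928), and over the libraries left out in turn its log₂FC ranged from 0.1233 to 0.3033. The cause was not tested beyond the scaling itself, which moves all genes together. Leaving out libraries also turned the small ratio changes of SPRY1 over SPRY2 (-0.1316 to 0.1137) and SPRED1 over SPRED2 (-0.0316 to 0.1537). DUSP4, SPRY4, SPRY1, SPRY2, DUSP5, DUSP6, and ETV4 kept direction and call under all 14 refits, and direction with a pseudocount of 1.

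Same-numbered libraries did not deviate together (correlations 0.0892, 0.0299, and -0.0764), and differently numbered ones ranged from -0.1347 to 0.1. The numbers were therefore not taken to pair libraries, though this check does not settle whether libraries of the 2 groups share an animal. The replicate block made 7 of the 10 genes higher in place of 6. The planned promoter motif search was not run, since no promoter sequence was at hand. With 3 libraries a group, changes as small as that of ETV5 were at the limit of the test, whereas 51 to 82 counts of SPRY4 per control library sufficed for its change.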
